A study of Mus musculus with 6 samples.

Results

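The nuclear-encoded subunits of respiratory complex I were followed in C2C12 myotubes after silencing of the microRNA miR-382-5p. Members were the genes whose symbol in the platform annotation begins with Ndufa, Ndufb, Ndufc, Ndufs or Ndufv and a digit. Ndufa4 and its relative Ndufa4l2, which do not belong to complex I, and the Ndufaf assembly factors were left out. The rule gave 33 of the 18820 genes named by a single-gene probe set. All 33 passed the filter on low values and were among the 11292 genes tested. They comprise 6 subunits of the catalytic core (Ndufs1, Ndufs3, Ndufs7, Ndufs8, Ndufv1 and Ndufv2) and 27 accessory subunits. The accessory subunits Ndufa13 and Ndufb1 are not analysed here, and Ndufa13 occurs only on 2 probe sets shared with another gene.

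C2C12 cells are mouse myoblasts, immortalized, which fuse to myotubes with many nuclei when serum is lowered to 2% horse serum, as was done for both groups. On day 6 of differentiation an LNA (locked nucleic acid) oligonucleotide was transfected at 50 nM with a lipid reagent, and RNA was taken after 24 h, on day 7. In the silenced group (3 arrays) this was a miR-382-5p inhibitor, and in the control group (3 arrays) a negative control. The inhibitor was thus added only on day 6 of differentiation, and no untransfected cells were analysed here. The share of cells that had fused by then cannot be read from these arrays. The labels do not say if a group's samples are 3 cultures, so p-values measure only the spread between these samples. Values are log2 expression levels per array from 1-colour Affymetrix arrays, normalized by the authors with RMA, and a difference is silenced minus control on that scale.

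Complex I takes electrons from NADH and passes them through a flavin and a chain of iron-sulfur clusters to ubiquinone, and it pumps protons across the inner mitochondrial membrane. Its peripheral arm in the matrix holds the N module, where NADH is oxidized, and the Q module, where quinone is reduced. The membrane arm pumps protons and is divided here into a proximal part and a distal part, the latter built around the mtDNA-encoded subunits ND4 and ND5. Core subunits carry the catalytic machinery and are conserved from bacteria, whereas accessory subunits surround the core and serve assembly and stability. Muscle fibres depend on the complex for oxidative ATP supply. The series title names an imbalance of mitochondrial and nuclear proteins and the mitochondrial unfolded protein response. Complex I is of mixed genetic origin, but the subunit values here are RNA levels of nuclear genes and do not measure that imbalance.

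The agent and the promoters of members are shown here as sequences, all from RefSeq on build GRCm38.p6. The mature microRNA, on chr12:109733781-109733802 (plus strand), is the molecule that the inhibitor targets, and its seed (bases 2 to 8) is in capitals.
mmu-miR-382-5p: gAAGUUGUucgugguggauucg

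Promoter windows of 300 bases (250 before and 50 after the start site) were matched for 30 of the 33 members, 5 of them core. Both strands were searched for 4 words linked to regulators of respiratory chain genes. These were GCGCA followed by any base and GCGC for NRF1, CCGGAAG for the ETS family that includes GABPA (nuclear respiratory factor 2), AAGATGGCG for YY1 and AAGGTCA for the estrogen-related receptors. The NRF1 word was in 7 of the 30 members (23.3%) and in 5.19% of the 27025 genes with a promoter in the table. The YY1 word was in 5 members (16.7%, against 1.64%), the ETS word in 4 (13.3%, against 9.93%) and the receptor word in 3 (10.0%, against 5.38%). At least 1 of the 4 words occurred in 16 of the 30. A match is a string of letters and not evidence of binding.

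The upstream 250 bases of 3 members follow with matches in capitals. Ndufb11 is shown because it is the member with the smallest p, Ndufa8 because it is the 1 member whose silenced values all lay above its control values, and Ndufb4 because it holds the most matches. They lie on the minus strand at chrX:20617620-20617869, chr2:36049339-36049588 and chr16:37654369-37654618.
Ndufb11: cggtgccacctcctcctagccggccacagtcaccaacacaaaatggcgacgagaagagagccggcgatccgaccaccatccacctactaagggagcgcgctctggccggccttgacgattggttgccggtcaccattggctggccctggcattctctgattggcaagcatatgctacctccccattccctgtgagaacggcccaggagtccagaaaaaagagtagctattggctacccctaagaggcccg
Ndufa8: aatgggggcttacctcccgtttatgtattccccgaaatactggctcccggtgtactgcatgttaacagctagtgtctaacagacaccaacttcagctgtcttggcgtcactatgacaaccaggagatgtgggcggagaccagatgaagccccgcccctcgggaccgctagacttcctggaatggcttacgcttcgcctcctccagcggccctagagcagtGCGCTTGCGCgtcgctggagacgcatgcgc
Ndufb4: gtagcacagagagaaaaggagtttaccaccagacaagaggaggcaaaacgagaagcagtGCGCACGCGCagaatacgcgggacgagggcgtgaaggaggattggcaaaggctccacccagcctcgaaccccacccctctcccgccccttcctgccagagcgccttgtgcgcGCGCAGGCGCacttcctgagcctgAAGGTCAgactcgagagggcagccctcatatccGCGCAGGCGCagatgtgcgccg

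None of the 4 words is in the Ndufb11 window. Ndufa8 has 1 NRF1 word, on the reverse strand, from base -30 to base -21 before the start site. Ndufb4 has 3 NRF1 words and 1 receptor word.

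The 5 matches to the YY1 word all lay just after the start site, beginning between bases 23 and 36, and all ran in the direction of the gene. They are shown over 30 bases with the word in capitals, because they are the most uniform feature among these promoters.
Ndufs7: ctgaaggccgaggccAAGATGGCGgcgctg
Ndufs4: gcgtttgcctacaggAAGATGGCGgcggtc
Ndufs6: tcaagggtcaccggcAAGATGGCGgcggtg
Ndufa9: gaggcattgtgggagAAGATGGCGgccgcc
Ndufc1: cggagcctgcggaacAAGATGGCGccgtcc

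These windows lie at chr10:80249458-80249487 (plus strand), chr13:114388045-114388074, chr13:73328435-73328464, chr6:126849101-126849130 and chr3:51408919-51408948 (minus strand for these 4). Members with the NRF1 or the YY1 word had differences in both directions. Means in silenced arrays were higher for 4 and lower for 3 of the 7 genes with the NRF1 word, and of the 5 with the YY1 word 3 were higher and 2 lower. The 4 genes with the ETS word and the 3 with the receptor word all had lower means, by -0.053 to -0.015 and by -0.21 to -0.048. Among the 14 members with none of the words, 10 had a lower mean.

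Across the 33 members, silenced arrays had a lower mean for 22 and a higher mean for 11, but no member passed limma's threshold of an adjusted p of 0.05. The background share of calls at that threshold was 0% (0 of 11292 genes). At an unadjusted p under 0.05 there was 1 member, Ndufb11, which was lower, against 1.97% of all genes lower and 2.83% higher. With the replicate number as a block there were 2, Ndufb11 and Ndufb3, where 10.3% of all genes had such a p. The members' median difference was -0.053 and that of all genes tested 0.0089. A lower mean was found for 66.7% of members and for 47.3% of all genes, the other 52.7% of which had a higher mean. These shares describe the list and were not tested. In bulk RNA, fewer cells of a type and less RNA per cell cannot be told apart.

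**Figure D1:**
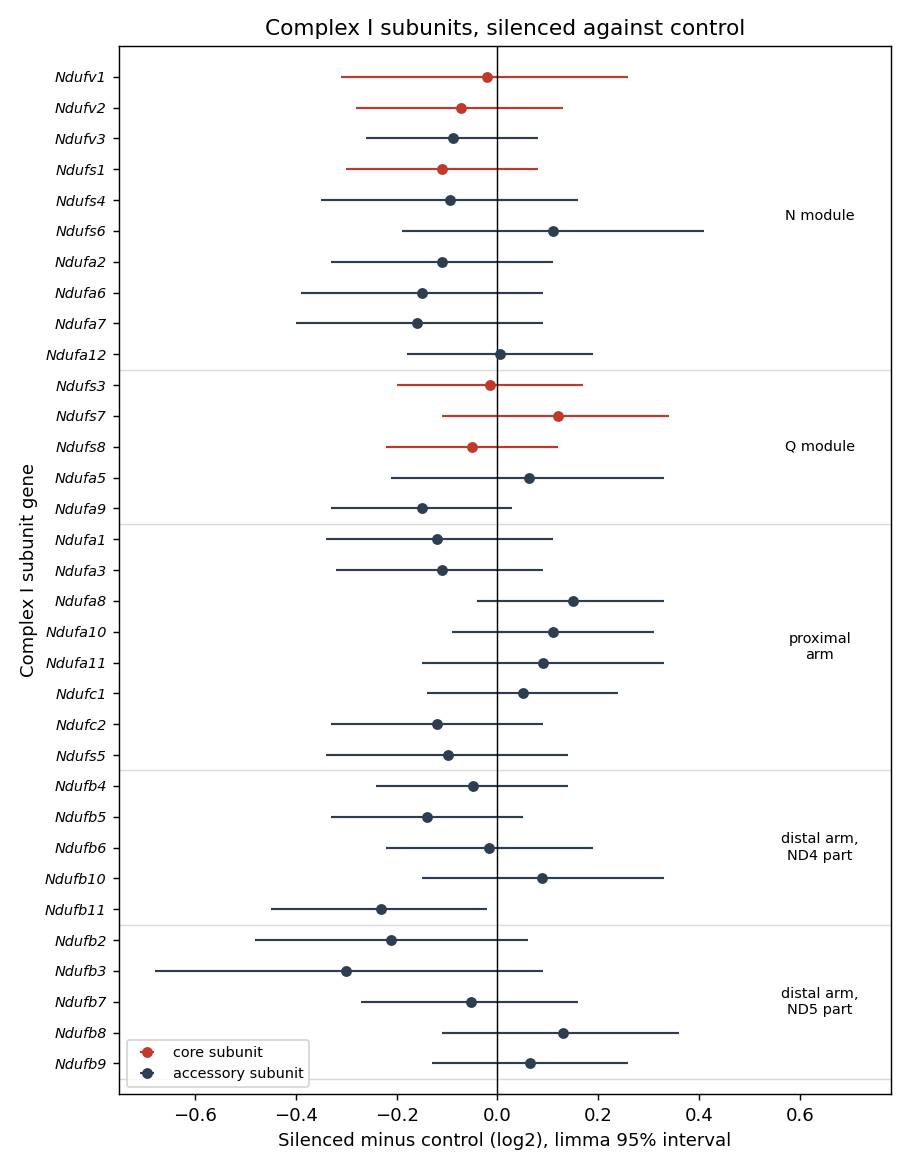
Difference between silenced and control arrays (log2, horizontal axis) for each of the 33 subunit genes, grouped by module, with limma's 95% interval (3 arrays per group). Core subunits are red and accessory subunits dark; the interval of Ndufb11 alone leaves out 0, and differences run from -0.30 (Ndufb3) to 0.15 (Ndufa8).

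The arrays set limits on how large a change could be. The limma 95% interval lay inside -0.5 to 0.5 log2 for 32 of the 33 members (97% of them, against 81% of all genes tested). The exception was Ndufb3, whose interval ran from -0.68 to 0.09. The share over all genes was not matched for level. It includes genes down to the filter at 3.87, whereas the lowest group mean of a member was 6.38 (Ndufb3, silenced). Half-widths ran from 0.17 for Ndufs8 to 0.38 for Ndufb3, with a median of 0.21. They hold for each gene taken singly, without adjustment over the genes tested. Even so, differences under about 0.21 were not detectable for a typical member. The adjusted threshold asks for more: Ndufb11, at -0.23, had an adjusted p of 0.871 by limma. The difference needed to pass that threshold was not estimated.

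**Figure D2:**
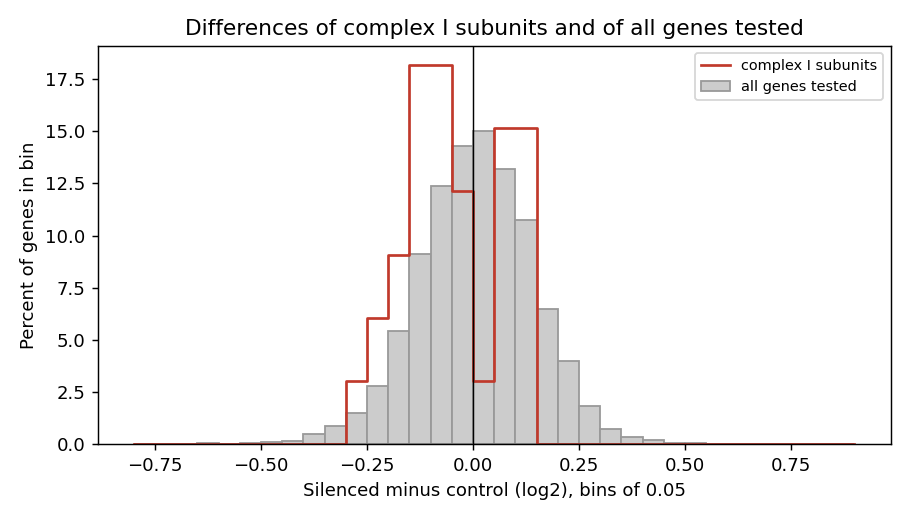
Percent of genes (vertical axis) by difference between silenced and control arrays in bins of 0.05 log2 (horizontal axis), for all 11292 genes tested (grey bars) and for the 33 complex I subunits (red line). The subunits stay within -0.30 to 0.15, inside the range of all genes (-0.78 to 0.86), with 22 of 33 below 0.

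The contrast of core with accessory subunits overlapped between the groups of arrays. Of the 6 core subunits 5 were lower in mean after silencing (median difference -0.036). Of the 27 accessory subunits 17 were lower and 10 higher, with a median of -0.088. For a contrast of the classes, each gene was centred on its mean over the 6 arrays and the mean over accessory genes was subtracted from the mean over core genes. That value was -0.054, 0.034 and -0.017 in control replicates 1, 2 and 3. In silenced replicates 1, 2 and 3 it was -0.046, 0.026 and 0.056. The groups overlapped, at -0.012 ± 0.044 in control and 0.012 ± 0.053 in silenced arrays (SD, n = 3). The difference of 0.024 was below the spread between arrays. Within replicate numbers 1, 2 and 3 it was 0.0074, -0.0081 and 0.073, so its size came mainly from number 3. It was 0.0032 without control replicate 1, 0.0019 without silenced replicate 3, and 0.053 and 0.047 without silenced replicate 1 and control replicate 2.

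Ndufv1 binds NADH and the flavin at the entry of electrons. It read 8.79, 8.76 and 8.91 in control replicates 1, 2 and 3 and 8.55, 8.89 and 8.96 in silenced replicates 1, 2 and 3. Silenced replicate 1 was the lowest of the 6 arrays and silenced replicate 3 the highest, and the groups overlapped (difference -0.021, 95% interval -0.31 to 0.26). Its partner Ndufv2, which holds an iron-sulfur cluster beside the flavin, read 9.35, 9.36 and 9.55 in control and 9.39, 9.32 and 9.32 in silenced arrays. Control replicate 3 stood above the other 5 (difference -0.073 ± 0.087, SE). Ndufs1, the largest subunit, carries further iron-sulfur clusters of the N module. It read 9.20, 9.24 and 9.35 in control and 9.09, 9.15 and 9.22 in silenced arrays. Every silenced array was below the control array of its number, by 0.11, 0.091 and 0.14, while the groups overlapped between numbers (difference -0.11 ± 0.083, SE; limma, adjusted p = 0.874).

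In the Q module, Ndufs3 joins early in assembly and holds no cofactor. Its levels were 9.58, 9.68 and 9.60 in control and 9.55, 9.58 and 9.68 in silenced arrays, nearly the same set of values (difference -0.015, 95% interval -0.20 to 0.17). Ndufs7 holds the last iron-sulfur cluster before quinone and was the 1 core subunit with a higher mean in silenced arrays. Control replicates read 10.30, 10.32 and 10.30, and silenced replicates 10.25, 10.52 and 10.49. Silenced replicates 2 and 3 lay above all control arrays and silenced replicate 1 below them, a difference of 0.12 ± 0.095 (SE; limma, adjusted p = 0.878). Ndufs8, which carries a pair of iron-sulfur clusters, read 10.54, 10.56 and 10.57 in control and 10.50, 10.51 and 10.52 in silenced arrays. Its groups did not overlap, but the gap was small, at -0.050 ± 0.071 (SE; limma, adjusted p = 0.920), and limma's SE exceeds the raw spread because it borrows variance from all genes.

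**Figure D3:**
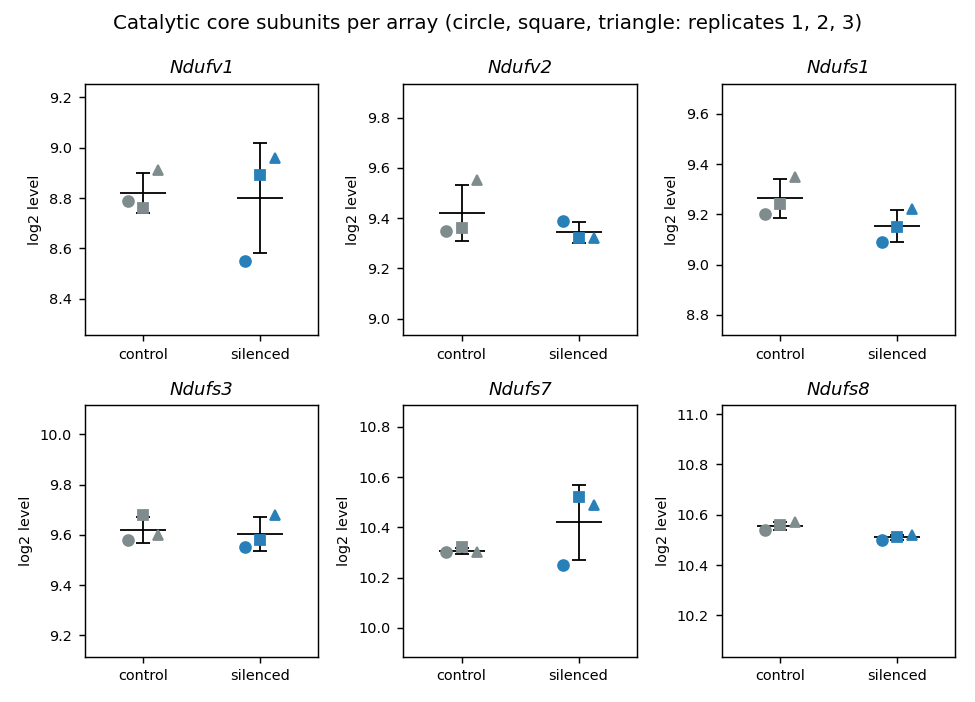
Log2 level per array (vertical axis, each panel spanning 1 log2 unit) of the 6 core subunits in control (grey) and silenced (blue) arrays; bars are mean and SD of 3 arrays. Ndufs8 has no overlap between groups, and Ndufs7 shows silenced replicates 2 and 3 above control while silenced replicate 1 lies below.

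Of the 7 accessory subunits of the N module 5 were lower in mean after silencing and 2 higher. With the 3 core subunits of the module this made 8 lower of 10, and the module's median was -0.090. Ndufv3, a small subunit that binds beside Ndufv1, read 8.70, 8.72 and 8.74 in control and 8.66, 8.59 and 8.65 in silenced arrays, without overlap (difference -0.088 ± 0.073, SE; limma, adjusted p = 0.878). Ndufa2, which has a thioredoxin-like fold, read 9.51, 9.55 and 9.52 in control and 9.25, 9.50 and 9.49 in silenced arrays. Here too the groups were apart, by a narrow margin for silenced replicates 2 and 3 and a wide one for silenced replicate 1. Ndufs4 is a late-joining subunit whose loss causes Leigh syndrome, and it read 9.37, 9.12 and 9.35 in control and 9.28, 9.25 and 9.03 in silenced arrays. The zinc-binding Ndufs6 was 8.97, 8.68 and 9.01 in control and 8.86, 9.19 and 8.93 in silenced arrays. Both overlapped between groups, with differences of -0.093 ± 0.11 and 0.11 ± 0.13 (SE), and that of Ndufs6 came from replicate number 2 (0.51) against -0.10 and -0.087 in numbers 1 and 3. Ndufa6, which anchors the mitochondrial acyl carrier protein, and Ndufa7 differed by -0.15 and -0.16, and Ndufa12 by 0.0044. Schemes differ on whether Ndufa6 and Ndufa7 belong to the N or the Q module.

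The Q module had a median of -0.015, with 3 lower of 5. Ndufa9, a nucleotide-binding subunit at the joint of both arms, read 8.71, 8.60 and 8.69 in control and 8.48, 8.52 and 8.54 in silenced arrays. All silenced values lay below all control values, 1.11-fold lower in mean (difference -0.15 ± 0.076, SE; limma, adjusted p = 0.871). Ndufa5 overlapped between groups, with a difference of 0.062 ± 0.11 (SE). The module's median was -0.050 with Ndufa6 and Ndufa7 added and 0.023 with Ndufa9 counted in the proximal arm instead. With single arrays left out it ran from -0.053 (without silenced replicate 3) to 0.0025 (without control replicate 2), so its sign was not settled.

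The proximal membrane arm held 4 subunits with a lower and 4 with a higher mean in silenced arrays (median -0.023). That median was 0.018 without control replicate 3, -0.044 without control replicate 2, and -0.097 with Ndufa9 counted here. Ndufa8 is imported and folded through disulfide bonds in the intermembrane space. It read 9.73, 9.65 and 9.73 in control and 9.78, 9.92 and 9.86 in silenced arrays, the single member lying apart upward, at 1.11-fold (difference 0.15 ± 0.079, SE; limma, adjusted p = 0.871). Ndufa10, which has a nucleoside kinase-like fold, read 10.14, 10.15 and 10.13 in control and 10.14, 10.35 and 10.26 in silenced arrays. Ndufa11, which touches complex III in respiratory supercomplexes, read 9.62, 9.52 and 9.54 in control and 9.46, 9.72 and 9.77 in silenced arrays. In both, silenced replicates 2 and 3 were above the controls and silenced replicate 1 was not, as for Ndufs7. The differences were 0.11 ± 0.084 and 0.091 ± 0.10 (SE). Ndufa1, Ndufa3, Ndufc2 and Ndufs5 had lower means, by -0.12, -0.11, -0.12 and -0.097, and Ndufc1 a higher one, by 0.051. Their groups overlapped. Ndufs5, another disulfide-bonded subunit of the intermembrane space, was lower in all 3 same-numbered pairs.

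The distal membrane arm had 7 lower of 10, and held the members with the most negative differences. In its ND4 part (median -0.048) stood Ndufb11, a single-pass membrane subunit encoded on the X chromosome. It read 8.52 in each of control replicates 1, 2 and 3, an SD of 0.0025, and 8.16, 8.27 and 8.42 in silenced replicates 1, 2 and 3. All silenced values were lower, and they spread far more than the controls. The difference was -0.23 ± 0.090 (SE), 1.18-fold lower, with an unadjusted p of 0.0335 and an adjusted p of 0.871 by limma. A further probe set of Ndufb11, at a mean level of 8.36 against 8.40 for the one used, gave -0.24. Whether the 2 are independent readings was not tested. When single arrays were left out, the unadjusted p of Ndufb11 was 0.0150 without silenced replicate 3 and between 0.0669 and 0.0942 in the other 5 fits, so it stayed under 0.05 in 1 of 6. The median of the ND4 part ran from -0.075 (without control replicate 1) to -0.015 (without control replicate 3). Ndufb5 read 8.23, 8.21 and 8.39 in control and 8.13, 8.12 and 8.15 in silenced arrays, also apart (difference -0.14 ± 0.082, SE). Ndufb4, Ndufb6 and Ndufb10 overlapped between groups, with differences of -0.048, -0.016 and 0.088.

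In the ND5 part (median -0.053), no member lay apart. Its median was 0.00058 without silenced replicate 1 and -0.11 without control replicate 1. Ndufb2, a small membrane subunit, read 7.50, 7.12 and 7.34 in control and 7.04, 7.08 and 7.22 in silenced arrays (difference -0.21 ± 0.11, SE). Control replicate 1 was highest and replicate number 1 gave the widest gap, -0.46 against -0.043 and -0.12. Ndufb3, another small membrane subunit, read 6.67, 6.54 and 6.83 in control and 6.53, 6.02 and 6.60 in silenced arrays. Silenced replicate 2 was far below the other 5, and the difference was -0.30 ± 0.16 (SE), 1.23-fold lower. Its limma p was 0.112, or 0.0196 (adjusted p = 0.464) in the fit that takes the replicate number as a block. Leaving out silenced replicate 2 brought the difference of Ndufb3 to -0.11. Ndufb8, whose protein is widely used to track assembled complex I, read 7.71, 7.70 and 7.88 in control and 7.97, 7.74 and 7.96 in silenced arrays. It was higher in all 3 same-numbered pairs, by 0.27, 0.038 and 0.075 (difference 0.13 ± 0.099, SE). Ndufb9, a member of the LYR protein family, read 11.76, 11.70 and 11.89 in control and 11.84, 11.88 and 11.83 in silenced arrays (difference 0.064 ± 0.082, SE). Ndufb7 differed by -0.053.

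**Figure D4:**
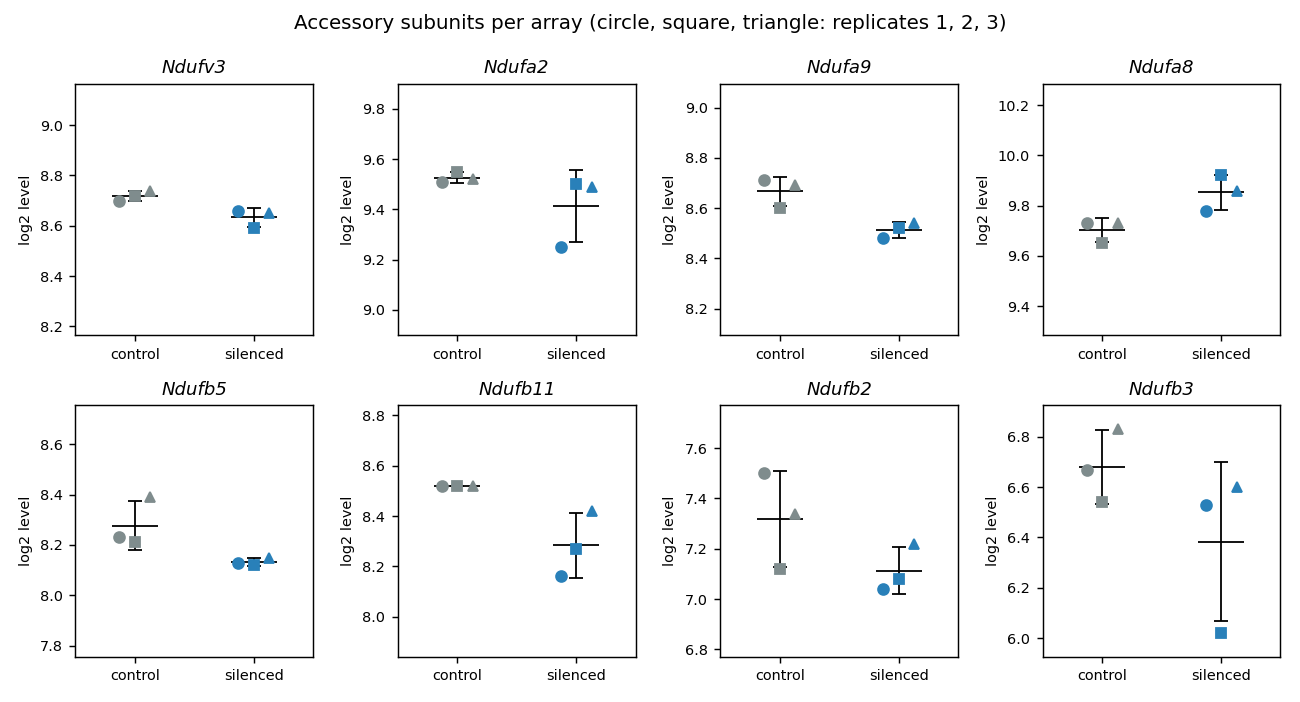
Log2 level per array (vertical axis, each panel spanning 1 log2 unit) of 8 accessory subunits in control (grey) and silenced (blue) arrays; bars are mean and SD of 3 arrays. The first 6 panels are the accessory subunits whose groups do not overlap, with Ndufa8 the 1 higher in silenced arrays, and the last 2 (Ndufb2 and Ndufb3) overlap.

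Counted over all members, the 3 silenced values lay wholly below the 3 control values for 6 genes (Ndufv3, Ndufa2, Ndufs8, Ndufa9, Ndufb5 and Ndufb11), which is 18.2% of members against 4.87% of all genes tested. They lay wholly above for Ndufa8 alone, 3.03% against 6.94%. By same-numbered pairs, 11 members (33.3%) were lower in all 3 pairs and 2 (6.06%) higher in all 3, where 15.8% and 19.7% of all genes were. The 6 genes apart downward belong to the N module (2), the Q module (2) and the ND4 part (2), and 5 of them are accessory.

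The direction was not even over replicate numbers. Within number 1, 23 of 33 members were lower (median -0.090), within number 2, 17 (median -0.0037), and within number 3, 22 (median -0.087). The centred mean of the 33 genes was 0.017, -0.026 and 0.076 in control replicates 1, 2 and 3 and -0.058, -0.011 and 0.0013 in silenced replicates 1, 2 and 3. Control replicate 3 was the highest, with 27 of 33 genes above their own mean, and silenced replicate 1 the lowest, with 8. Control replicate 2 lay below silenced replicates 2 and 3, so the groups overlapped. Without control replicate 3 the members' median was -0.025, and 21 of 33 remained lower in mean.

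**Figure D5:**
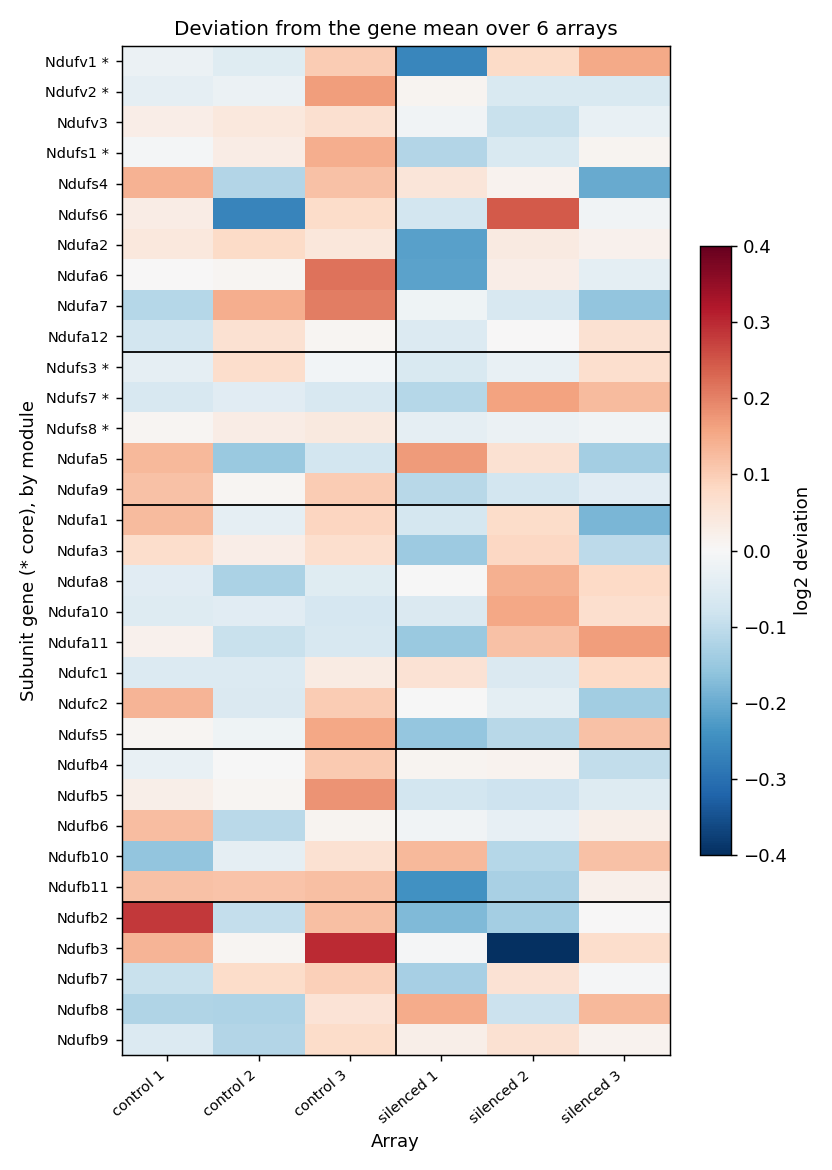
Deviation of each subunit gene (rows, by module, core marked with an asterisk) from its mean over the 6 arrays, per array (columns), on a log2 colour scale from -0.4 (blue) to 0.4 (red). Control replicate 3 is mostly red (27 of 33 genes above their mean), silenced replicate 1 mostly blue (8 of 33), and the darkest blue cell is Ndufb3 in silenced replicate 2.

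The probe sets set a limit of their own. A total of 6 members had 2 single-gene probe sets each. For Ndufb11, Ndufb4, Ndufb5 and Ndufs3 both had the same sign, but for Ndufa11 (0.09 and -0.03) and Ndufc1 (0.05 and -0.04) they were opposite. RefSeq lists further genes or pseudogenes close in name to Ndufb4 (Ndufb4b and Ndufb4c), Ndufa11 (Ndufa11b), Ndufs5, Ndufs6 and Ndufa12, so signal of another locus may enter these probe sets.

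Other genes of the pathway came from lists by role. Assembly factors build the complex and leave it, and 12 of 16 tested had a lower mean in silenced arrays (median -0.055), none past the adjusted threshold and, without the replicate block, none with an unadjusted p under 0.05. Within replicate numbers 1, 2 and 3 the medians were 0.072, -0.12 and -0.063, with 6, 11 and 11 of the 16 lower. The smallest p belonged to Tmem126b, a membrane-arm assembly factor, at 7.58, 7.43 and 7.66 in control and 7.41, 7.07 and 7.48 in silenced arrays (difference -0.24 ± 0.13, SE). As for Ndufb3, silenced replicate 2 was the lowest array. Tmem126b was lower in all 3 same-numbered pairs (-0.16, -0.36 and -0.18), and with the replicate block its limma p was 0.0233 (adjusted p = 0.464). Ndufaf4, which works on early intermediates, differed by -0.21 ± 0.12 (SE). Of 13 tested genes of iron-sulfur cluster synthesis, which supply the cofactors of the core, 10 had a lower mean (median -0.051), and 6, 9 and 10 of the 13 were lower within numbers 1, 2 and 3. Bola3 differed by -0.18 ± 0.15 and Isca2 by -0.096 ± 0.088 (SE).

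Regulators of respiratory chain genes had 7 higher and 4 lower means of 11 tested (median 0.013). Nrf1, nuclear respiratory factor 1, read 6.50, 6.48 and 6.51 in control and 6.72, 6.62 and 6.61 in silenced arrays (difference 0.16 ± 0.075, SE; limma, adjusted p = 0.871). Yy1 read 7.88, 7.83 and 7.88 in control and 7.96, 7.95 and 7.99 in silenced arrays (difference 0.10 ± 0.072, SE; limma, adjusted p = 0.871). Both lay wholly above control, as did 6.94% of all genes tested, and neither passed the threshold. They are named for having the smallest p of the 11, and no other regulator tested lay wholly above. The 7 mtDNA-encoded complex I genes are not analysed here, as 0 of them were found among single-gene probe sets under symbols of the form mt-Nd1. Other spellings of these names were not searched.

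Markers of the labelled cells were present. All 10 myotube markers were measured, with a list mean of 10.75 to 10.84 in control and 10.84 to 10.99 in silenced arrays, and after silencing the mean was higher for 7 of the 10 and lower for 3 (median difference 0.044). An unadjusted p under 0.05 was found for 3 of them, all higher, while Mylpf lay wholly below its control values. Markers of undifferentiated myoblasts (5 of 6 named) had a list mean of 7.87 to 8.09 and 7.66 to 8.14, and 0 of the 5 were below the filter on low values. After silencing the mean was lower for 3 of the 5 and higher for 2 (median difference -0.09). Pax7, 1 of the 2 higher, had an unadjusted limma p under 0.05. Fibroblast markers (7 of 7) had a list mean of 8.05 to 8.47 and 8.01 to 8.40, and 1 of the 7 was below the filter. Of the 6 tested, the mean after silencing was lower for 3 and higher for 3 (median difference -0.0082). Their differences ran from -0.6 to 0.09. The 5 adipocyte and 3 neuron markers named were all below the filter on low values, as were 4 of the 6 osteoblast and chondrocyte markers. The part of these marker values in the subunit values was not tested.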

How the data were processed

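Gene expression was measured in 6 samples, 3 silenced and 3 control, from 100 ng of total RNA each with an RNA integrity number above 8.0, per the labels' protocols. The deposited log2 values of 35556 probe sets were made by the authors with RMA, per the submitters' processing notes; no version or probe set definition is given in the sources used. RMA draws the distributions of arrays together and compresses differences of dim genes. The arrays' medians lay between 4.21 and 4.27, pairwise correlations between 0.985 and 0.995, and 0 arrays were identical. The number of arrays limits the precision.

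Of the probe sets, 21218 name 1 gene; for each gene the row of highest mean level across the 6 arrays was used, 18820 genes in all. Genes above the 40th percentile (3.87) were tested with limma 3.58.1 in R 4.3.3 (lmFit, eBayes, 2-sided, no covariate, Benjamini-Hochberg over 11292 genes, threshold 0.05), a fit tested on simulated data. The members and lists were chosen with earlier results of these data known, so no test over a list is given. Named genes are the core, the 4 accessory members with the smallest p in each direction, the highest and lowest in mean level, 6 accessory members with known roles (Ndufa13 among them, not analysed here), Ndufab1, Ndufa4, Ndufa4l2, and the 2 with the smallest p of each pathway list. Other members were named after their values were seen.

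Same-numbered arrays deviated together (correlations 0.55, 0.35 and 0.42; all other pairings lay between -0.44 and 0.19), and were treated as pairs for this reason only, since no label states a pairing.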

Additional observations from a re-analysis of the deposited data

How the results depend on the processing

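The count of members past the adjusted threshold was 0 under all 15 alternatives: the replicate block, repeated quantile normalization, other filters and variance models, the mean of all probe sets of a gene, added members and left-out arrays. At an unadjusted p under 0.05 the count was 2 instead of 1 with the replicate block (Ndufb11 and Ndufb3), with the mean of all probe sets (Ndufb5 and Ndufb11) and without both arrays numbered 1 (Ndufa7 and Ndufa11), and ran from 0 to 1 when single arrays were left out; the cause was not tested. That single member was Ndufa7 without control replicate 1, Ndufb2 without control replicate 2, Ndufs7 without silenced replicate 1 and Ndufb11 without silenced replicate 3 alone, so Ndufb11 lost its place in 5 of the 6 fits. Over all genes that count was 542, and 1168 with the block, 1160 without both arrays numbered 1, 834 without a filter, 828 without control replicate 1 and 272 without control replicate 3. The block changed no adjusted call. With 1 array left out the members' median ran from -0.075 to -0.025 and the core minus accessory difference from 0.0019 to 0.053; both kept their sign under all alternatives run. Of the 17 members followed singly and 9 genes outside the list, 3 changed sign when an array was left out: Ndufv1 (-0.10 to 0.10) was positive without control replicate 3 (0.024) or silenced replicate 1 (0.10), Ndufs3 (-0.053 to 0.016) without control replicate 2 (0.016) or silenced replicate 1 (0.012), and Ndufa4l2 (-0.17 to 0.11) without control replicate 2 (0.036) or silenced replicate 1 (0.11). The alternative without extra gene copies could not differ, because no member's symbol marks one.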

Other observations

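Near relatives of the members did not all go one way. Ndufa4, now counted with complex IV, read 10.77, 10.65 and 10.86 in control and 10.65, 10.54 and 10.56 in silenced arrays. The difference was -0.18 ± 0.088 (SE; limma, adjusted p = 0.871). Ndufab1, the mitochondrial acyl carrier protein that is part of complex I, read 8.74, 8.72 and 8.78 in control and 8.76, 8.77 and 8.79 in silenced arrays, a difference of 0.031 with a 95% interval of -0.14 to 0.20. Ndufa4l2, a hypoxia-induced relative of Ndufa4, differed by -0.053 with an interval of -0.44 to 0.33.

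The other nuclear-encoded complexes of the chain also had more lower than higher means in silenced arrays. There were 3 of 4 lower in complex II, 6 of 8 in complex III, 10 of 13 in complex IV and 11 of 17 in complex V, with medians of -0.077, -0.060, -0.053 and -0.014. The complex I value of 22 of 33 and a median of -0.053 lay among these. The difference between complexes was not tested.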
